A study of Homo sapiens with 20 samples.

Results

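Histone genes were taken from the RNAseq measurements of HL60 cells, a human promyelocytic acute myeloid leukemia (AML) line that matures towards granulocytes under the retinoid ATRA. Members were the genes named as part of a histone cluster (symbols starting with HIST1H, HIST2H, HIST3H or HIST4H) together with 8 replacement variants given by name, as long as their normalized count reached 5 in at least 3 of the 12 libraries. Of 28051 named genes, 81 fitted the names and 42 also reached the count minimum, 34 of them cluster genes and 8 replacement variants. The cluster members comprised 11 H2B, 9 H2A, 7 H4, 5 H3 and 2 H1 genes. Of the 39 genes that fitted by name but not by count, 17 were at 0 in all 12 libraries and 22 were above 0 somewhere. At the edge of the rule, H1F0 entered with 3 libraries at 5 or more, and 6 genes (HIST2H2AB, HIST1H2BB, HIST1H2AB, HIST1H4D, HIST1H1B and HIST2H3D) stayed out with 2.

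The study treated HL60 cells expressing Cas9 alone (Cas9 control) and HL60 cells labelled HK3-null, in which CRISPR-Cas9 was aimed at hexokinase 3, for 36 h with 1 µM ATRA or with 0.01% DMSO as diluent. RNAseq gave 3 libraries in each of these 4 groups and ATACseq, which reads open chromatin, gave 2 libraries in each. All groups therefore shared the HL60 background and Cas9, and the study describes them as clones, so that genotype and clone cannot be told apart. The titles do not tell separate HK3-null clones apart, and p values measure the spread between cultures only. HK3 itself was not lower in the RNA of the libraries labelled HK3-null. It had normalized counts of 90, 65 and 105 in Cas9 control DMSO and 344, 302 and 346 in HK3-null DMSO, and of 1305, 1298 and 1850 in Cas9 control ATRA and 1384, 1285 and 1975 in HK3-null ATRA. The study checked its knockout by other means. It reports altered DNA at the cut site by sequencing. By mass spectrometry it found no HK3 protein in HL60 knockout cells after vitamin D. The RNA counts measure neither, and so do not test the knockout. Normalized counts, the scaled read counts that were deposited, summed to 29056349 to 31549781 per library. They are not corrected for gene length, so levels are compared here between samples and not between genes. The library Cas9 control DMSO 1 held more genes above 0 than the other 11, which had 15031 to 15801. All 10 promyelocyte markers were detected, with MPO at 440811 to 661371, and among 15 markers of other lineages MS4A1, HBA1 and PF4 were at 0 in every library. The summed count of those 15 markers was 337 to 676 in the 6 Cas9 control libraries, 1005 to 1073 in HK3-null DMSO and 2473 to 2838 in HK3-null ATRA, most of it from PECAM1 and NKG7 except in Cas9 control DMSO 1, where COL1A1 gave 321. Their part in the results was not tested. In bulk RNA, fewer cells of a kind and less RNA per cell cannot be told apart.

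Histones package DNA. An octamer of the core histones H2A, H2B, H3 and H4 forms the nucleosome, and the linker histone H1 binds where DNA enters and leaves it. The cluster genes lie side by side, most of them in the large HIST1 cluster on chromosome 6, and are transcribed mainly in S phase to supply new chromatin. Their transcripts typically end in a stem-loop in place of a poly(A) tail, although several of the same genes can also yield polyadenylated transcripts in differentiating cells. The replacement variants lie outside the clusters, are transcribed through the cell cycle and typically have poly(A) tails. Those of H2A and H3 replace core histones in particular stretches of chromatin, while H1FX and H1F0 encode linker histones. Whether the RNAseq libraries were made by poly(A) selection is not given in the sources used here, and a selection would leave most cluster transcripts poorly sampled. The 34 cluster members together held 1.51% to 3.59% of the counts of all 81 genes that fitted by name, and the 8 replacement variants 96.3% to 98.5%.

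Short elements in front of the start sites mark many of these genes. In the 250 bases before the start, taken from RefSeq (GRCh38.p14), CCAAT occurred on either strand in 25 of the 29 cluster members with an entry (86.2%) and in 33.0% of 27305 promoters overall. TATAAA occurred in 17 of the 29 (58.6%, against 11.1% overall). The octamer ATTTGCAT, known as the binding element of OCT factors in H2B promoters, occurred in 13 of the 29 (44.8%, against 1.7% overall). By class, the octamer was found in 7 of 10 H2B and 5 of 8 H2A promoters, in 1 of 4 H3 promoters and in none of 5 H4 and 2 H1 promoters. CCAAT was found in 10 of 10 H2B, 8 of 8 H2A, 4 of 4 H3 and 2 of 2 H1 promoters, but in 1 of 5 H4 promoters. TATAAA can overlap its own reverse complement, and such a pair was counted as 2 matches. Several H2A and H2B genes start close together on opposite strands, such as HIST1H2AC (chr6:26124172) and HIST1H2BC (chr6:26123926). Their 250-base stretches overlap, so the same matches were counted for both genes. The counts of the 29 and of the classes are therefore not counts of separate stretches. A match is a run of letters, not a measured binding site. The promoters of 5 cluster genes on which the comparisons turn follow, 5′ to 3′ along the gene, with matches to any of these motifs on either strand in capitals. HIST1H3C was at 0 in Cas9 control, HIST1H2AL and HIST3H2A were lower in HK3-null, and HIST1H2BK was higher in HK3-null. HIST1H1C was the member whose ATRA change was called different between the genotypes in the main fit, which ignores the replicate numbers.
HIST1H3C: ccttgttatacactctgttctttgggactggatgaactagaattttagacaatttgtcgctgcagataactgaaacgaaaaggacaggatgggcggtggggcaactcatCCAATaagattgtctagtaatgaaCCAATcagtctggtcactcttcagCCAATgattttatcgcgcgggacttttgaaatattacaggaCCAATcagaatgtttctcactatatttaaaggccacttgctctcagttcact
HIST1H2AL: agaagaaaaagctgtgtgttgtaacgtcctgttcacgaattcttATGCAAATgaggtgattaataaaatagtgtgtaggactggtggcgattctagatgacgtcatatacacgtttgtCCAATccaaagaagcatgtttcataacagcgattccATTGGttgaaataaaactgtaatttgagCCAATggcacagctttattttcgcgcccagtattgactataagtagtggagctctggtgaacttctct
HIST3H2A: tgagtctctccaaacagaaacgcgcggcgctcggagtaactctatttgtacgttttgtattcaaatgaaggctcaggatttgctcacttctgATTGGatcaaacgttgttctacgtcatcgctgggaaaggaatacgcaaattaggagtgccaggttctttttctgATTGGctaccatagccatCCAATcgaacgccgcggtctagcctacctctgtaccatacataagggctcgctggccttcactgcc
HIST1H2BK: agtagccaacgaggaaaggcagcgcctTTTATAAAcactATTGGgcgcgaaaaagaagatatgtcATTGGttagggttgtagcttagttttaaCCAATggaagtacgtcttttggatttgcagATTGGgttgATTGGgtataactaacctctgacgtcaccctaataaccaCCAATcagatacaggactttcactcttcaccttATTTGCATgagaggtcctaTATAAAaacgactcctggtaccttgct
HIST1H1C: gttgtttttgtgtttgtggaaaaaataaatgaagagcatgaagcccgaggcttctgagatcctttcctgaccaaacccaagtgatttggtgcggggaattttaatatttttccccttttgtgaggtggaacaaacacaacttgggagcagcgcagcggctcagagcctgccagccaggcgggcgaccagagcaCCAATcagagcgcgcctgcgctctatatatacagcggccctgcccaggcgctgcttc
These stretches lie at chr6:26045134-26045383 (plus strand), chr6:27865067-27865316 (plus), chr1:228457874-228458123 (minus), chr6:27146859-27147108 (minus) and chr6:26056471-26056720 (minus). The HIST1H2BK promoter held 6 matches to CCAAT, 3 to TATAAA and 1 to the octamer. A TATAAA match began 27 bases before the start, and the octamer began 46 bases before it. The HIST1H3C promoter held 4 CCAAT matches, HIST1H2AL and HIST3H2A held 3 each and HIST1H1C held 1, and of these 4 promoters only HIST1H2AL held an octamer.

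The classes differed in how their RNA was spread over the 4 groups. Summed H2B counts were 654, 543 and 652 in Cas9 control DMSO and 819, 762 and 788 in Cas9 control ATRA. They were 1224, 1173 and 1335 in HK3-null DMSO and 1462, 1629 and 1453 in HK3-null ATRA. The 4 groups of H2B sums did not overlap, and most of the sum was HIST1H2BK. Summed H2A counts were 252, 211 and 190 in Cas9 control DMSO, 300, 268 and 276 in Cas9 control ATRA, 139, 122 and 170 in HK3-null DMSO and 168, 281 and 222 in HK3-null ATRA. HK3-null DMSO was therefore below every other group except the lowest HK3-null ATRA library. Summed H1 counts were 343, 236 and 363, then 290, 204 and 247, then 158, 149 and 205, and finally 228, 291 and 284 in the same order of groups.

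Within the HK3-null groups, H3 and H4 sums had the widest ranges between replicates. Summed H3 counts were 50, 27 and 99 in HK3-null DMSO and 42, 165 and 113 in HK3-null ATRA, a range of 3.67-fold and 3.93-fold within a group, against 39 to 60 and 61 to 70 in Cas9 control DMSO and ATRA. Summed H4 counts were 42, 50 and 86 in HK3-null DMSO and 81, 172 and 93 in HK3-null ATRA, against 47 to 90 and 56 to 73 in Cas9 control. The spread followed libraries. HK3-null ATRA 2 was alone highest of its group in 25 of 34 cluster members and HK3-null ATRA 1 alone lowest in 23, while HK3-null DMSO 3 was alone highest in 23. The summed counts of 25 S phase genes did not follow that order, at 179491, 174987 and 153672 in HK3-null ATRA and 170621, 172171 and 152371 in HK3-null DMSO. The 8 replacement variants summed to 66217 to 73891, 64809 to 76626, 55460 to 64967 and 59017 to 73451 in the 4 groups, which overlapped except for HK3-null DMSO against Cas9 control DMSO.

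**Figure D1:**
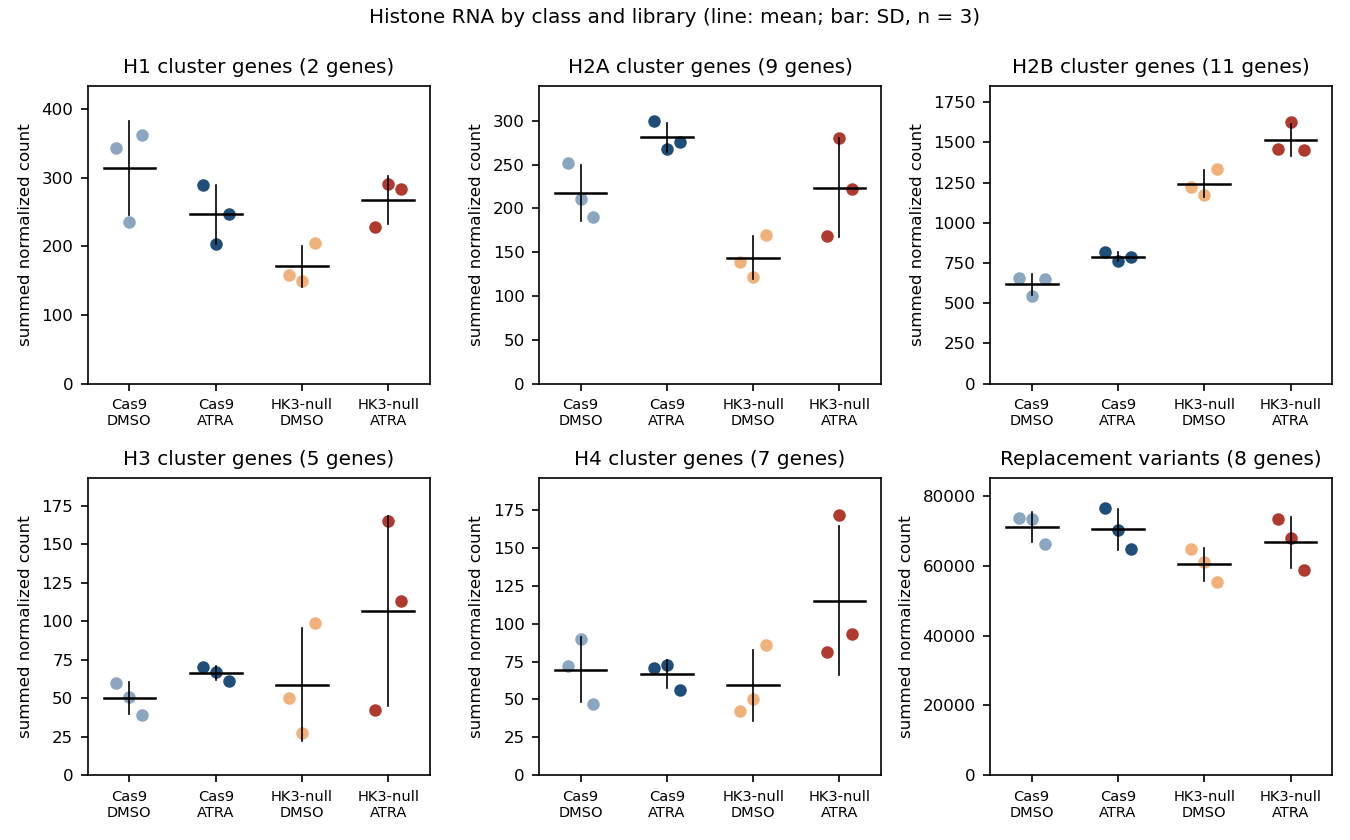
Summed normalized counts (vertical axes from 0) of the members of each histone class in the 12 RNAseq libraries, 1 point per library, with the group mean as a line and the SD as a bar (n = 3). H2B sums run from 543 to 819 in Cas9 control and from 1173 to 1629 in HK3-null, while H3 and H4 sums scatter most within the 2 HK3-null groups.

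The first question was how far histone RNA differed between the genotypes without differentiation. In the libraries labelled HK3-null against Cas9 control in DMSO, 4 of 39 tested members were higher and 6 lower. Over all 13256 tested genes 18.2% were higher and 15.5% lower. Calls required a Benjamini-Hochberg adjusted p under 0.05 over all tested genes, from limma fitted to log2(normalized count + 1), and a fold of at least 1.5. The median log2 fold change was -0.08 over the members and 0.00 over all tested genes. The 3 members not tested (HIST1H4K, HIST1H2BF and H1F0) missed the filter on low values. A further 9 members passed that filter through groups of 1 genotype only, which bears on any test between the genotypes, and among them HIST1H3C, HIST1H2AL and HIST1H3I were called in DMSO. Leaving the 9 out, 3 of 30 members were higher and 4 lower, without a share over all tested genes under the same exclusion. Without HK3-null DMSO 3, the calls lower numbered 9 in place of 6. The calls higher were HIST1H3C, HIST1H2BK, HIST1H2BN and HIST1H2BC, and the calls lower were HIST1H3I, HIST1H2AL, HIST3H2A, HIST1H1C, HIST1H2BJ and HIST1H2BL.

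HIST1H2BK (chr6:27138293-27146858), an H2B gene that is known to give polyadenylated transcripts, was the cluster gene with the most counts. It had 432, 386 and 481 normalized counts in Cas9 control DMSO and 1018, 986 and 1059 in HK3-null DMSO. It had 582, 544 and 546 in Cas9 control ATRA and 1166, 1211 and 1115 in HK3-null ATRA. Every HK3-null library was above every Cas9 control library, by 1.24 ± 0.09 (log2 fold change ± SE) in DMSO and 1.06 ± 0.09 in ATRA (limma adjusted p = 9.3e-08 and 3.2e-07). Of the 40-base words of its annotated transcripts 64.5% also occur in transcripts of other genes, and the gene overlaps HIST1H4I, which leaves its reads open to mixing with theirs. HIST1H2BC, another H2B gene, had 51, 20 and 31 counts in Cas9 control DMSO and 58, 59 and 69 in HK3-null DMSO, a change of 0.94 ± 0.27 (limma adjusted p = 0.0099), and 48, 46 and 45 against 93, 118 and 87 in ATRA, a change of 1.07 ± 0.27 (limma adjusted p = 0.0041). HIST1H2BN rose alike, from 15, 13 and 17 to 26, 33 and 39 in DMSO (1.06 ± 0.30, limma adjusted p = 0.0086) and from 10, 16 and 15 to 31, 47 and 22 in ATRA (1.19 ± 0.30, limma adjusted p = 0.0039). For both genes the groups did not overlap in either treatment. HIST2H2BE, on chromosome 1, had 38, 24 and 27 against 48, 32 and 60 in DMSO, a difference of 0.62 ± 0.25 that was not called (limma adjusted p = 0.052) but was called with the replicate number as a block (limma adjusted p = 0.012).

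HIST3H2A (chr1:228457364-228457873), an H2A gene of the small cluster on the long arm of chromosome 1, was the cluster gene with the most counts among those called lower in HK3-null in both treatments. It had 90, 103 and 74 normalized counts in Cas9 control DMSO and 21, 19 and 15 in HK3-null DMSO. In ATRA it had 106, 86 and 70 in Cas9 control and 19, 21 and 7 in HK3-null. The groups were far apart in both treatments, and the gene fell by 2.22 (SE 0.34) in DMSO and by 2.52 (SE 0.34) in ATRA on the log2 scale (limma adjusted p = 0.00011 and 3.3e-05). Only 0.99% of its 40-base words occur in other transcripts. Its neighbour HIST3H2BB, which reads away from it and did not reach the count minimum, had 1 or 2 counts in each of the 6 Cas9 control libraries and 0 in each of the 6 HK3-null libraries.

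HIST1H2BJ and HIST1H2BL, which encode H2B, were called lower in DMSO. HIST1H2BJ had 29, 18 and 27 counts in Cas9 control and 15, 10 and 12 in HK3-null, and HIST1H2BL 22, 17 and 20 against 11, 9 and 10. They fell by 0.93 (SE 0.31) and 0.91 (SE 0.24) on the log2 scale (limma adjusted p = 0.022 and 0.0056). In ATRA their differences were 0.32 ± 0.31 and -0.36 ± 0.24 (limma adjusted p = 0.39 and 0.20). HIST1H2BJ was not called in DMSO without Cas9 control DMSO 1 (-0.81, limma adjusted p = 0.071), Cas9 control DMSO 3 (-0.86, limma adjusted p = 0.064) or HK3-null DMSO 2 (-0.80, limma adjusted p = 0.078). The difference between the treatments was not called for either gene (limma interaction adjusted p = 0.10 and 0.38).

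In ATRA, the libraries labelled HK3-null had 7 of the 39 tested members higher than Cas9 control and 4 lower, beside 20% and 18.6% of all tested genes. The median log2 fold change was 0.36 over the members and 0.01 over all tested genes. By class, the calls were 3 of 10 H2B genes higher, 1 of 9 H2A genes higher and 2 lower, 1 of 5 H3 genes higher and 1 lower, 1 of 6 H4 genes higher and 0 of 2 H1 genes. HIST1H2AC, an H2A gene, had 36, 38 and 26 counts in Cas9 control and 46, 60 and 68 in HK3-null (0.78 ± 0.28, limma adjusted p = 0.030). HIST1H4A, an H4 gene, had 8, 3 and 5 against 14, 17 and 9 (1.21 ± 0.45). It was called, but it passed the filter on low values only through HK3-null ATRA, so no p is given. The groups of both genes did not overlap. Leaving out the 9 members that passed through 1 genotype, 5 of 30 were higher and 2 lower, again without such a share over all tested genes. HIST1H2AC lost its call without Cas9 control ATRA 3 (0.62, limma adjusted p = 0.11), HK3-null ATRA 2 (0.75, limma adjusted p = 0.076) or HK3-null ATRA 3 (0.66, limma adjusted p = 0.099), and without any filter on low values (limma adjusted p = 0.054). HIST1H4A lost its call without Cas9 control ATRA 2 or 3, without HK3-null ATRA 1 or 2, and without any filter. HIST1H4E and HIST1H4H had differences of 1.04 ± 0.44 and 0.68 ± 0.49 that were not called (limma adjusted p = 0.058 and 0.25). Both were called with the replicate number as a block (limma adjusted p = 0.031 and 0.048). Without HK3-null ATRA 2 the calls higher numbered 5, and without HK3-null ATRA 1 they numbered 9.

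Of the 29 members on chromosome 6, 27 were tested, and they were most of the 39 tested members. They held 4 of the 4 calls higher and 5 of the 6 calls lower in DMSO. In ATRA they held 6 of the 7 calls higher and 2 of the 4 calls lower. Most calls thus fell where most tested members lie. The chromosome as a whole was shifted. Over the 669 tested genes of chromosome 6 the median log2 fold change of HK3-null against Cas9 control was 0.52 in DMSO and 0.56 in ATRA, while that of the 27 tested cluster members there was -0.25 and 0.43. Between the first and the last HIST1 gene (chr6:25726063-27893891) lie 15 tested genes that are no histone genes, with medians of 0.37 and 0.29. Among these, ZNF391 changed by 2.03 and 1.49, BTN3A3 by -0.96 and -1.83 and LINC01012 by -0.92 and -2.22. LINC01012 passed the filter on low values only through Cas9 control, and HCG11 only through HK3-null. HCG11 had 2, 1 and 1 counts in Cas9 control DMSO and 43, 27 and 46 in HK3-null DMSO. In ATRA it had 0, 1 and 3 against 39, 29 and 33. Its Cas9 control counts were at or under a floor of 3 per library, so no fold is given. When the chromosome median was subtracted, 2 members were higher and 10 lower in DMSO, and 2 higher and 4 lower in ATRA. HIST1H2BC and HIST1H2BN were then no longer called in either treatment, nor were HIST1H2AC and HIST1H4A in ATRA, at 0.22 and 0.65. HIST1H2BK kept a difference of 0.72 in DMSO and was under the fold minimum in ATRA, at 0.50.

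**Figure D2:**
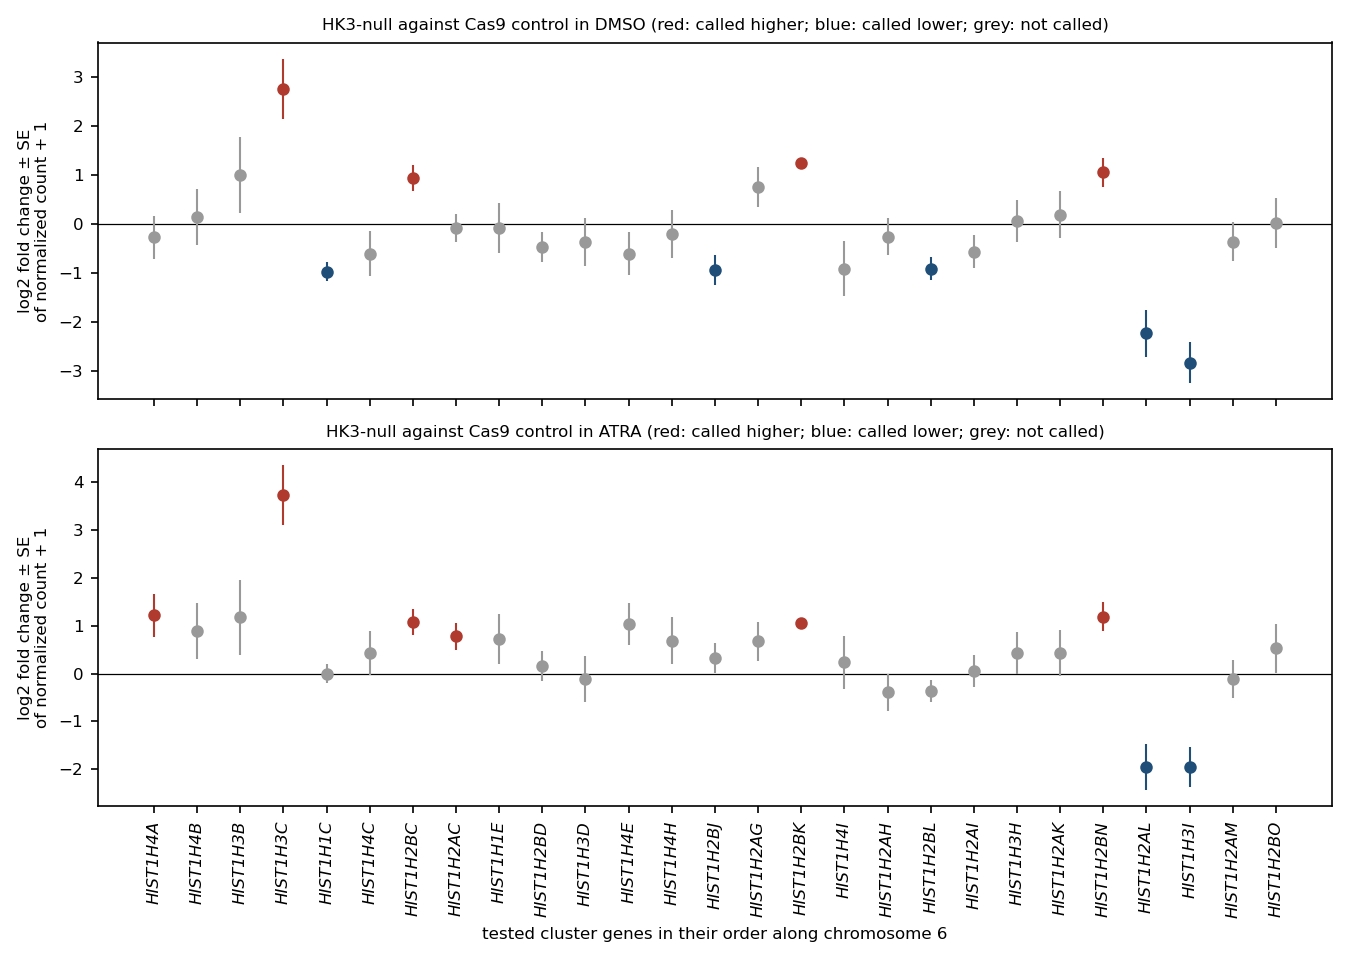
Log2 fold change of HK3-null against Cas9 control (normalized count + 1, point ± SE, n = 3 against 3) for the tested cluster members of chromosome 6 in their order along the chromosome, in DMSO (upper panel) and ATRA (lower panel). HIST1H3C near the left stands highest in both panels, at 2.76 and 3.73, and HIST1H2AL and HIST1H3I near the right stand lowest, between -1.95 and -2.83.

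Near both ends of the HIST1 cluster lay genes with counts at or near 0 in 1 of the genotypes. HIST1H3C (chr6:26045384-26045869), an H3 gene whose promoter is printed with the sequences, was at 0 in all 6 Cas9 control libraries. It had 5, 3 and 12 normalized counts in HK3-null DMSO and 4, 30 and 14 in HK3-null ATRA. Against a floor of 3 counts per library it was at least 2.22-fold higher in DMSO and at least 5.33-fold higher in ATRA. The fitted log2 fold changes depend on the value added to each count. At the other end, HIST1H3I (chr6:27871845-27872346), which also encodes H3, had 7, 4 and 8 counts in Cas9 control DMSO and 0 in each HK3-null DMSO library, at least 2.11-fold lower. In ATRA it had 11, 6 and 10 counts in Cas9 control and 1, 3 and 1 in HK3-null, a ratio of sums of 5.40 (95% exact counting interval 2.05 to 18.0). HIST1H2AL (chr6:27865317-27865798), an H2A gene nearby, had 6, 10 and 7 counts in Cas9 control DMSO and 2, 1 and 0 in HK3-null DMSO, a ratio of 7.67 (2.32 to 39.9). In ATRA it had 11, 8 and 15 against 1, 2 and 4, a ratio of 4.86 (2.12 to 13.0). HIST1H3C reached the count minimum and passed the filter only through HK3-null, and HIST1H3I and HIST1H2AL only through Cas9 control. A gene admitted in this way had to differ between the genotypes, so these values are a description and no p is given. These intervals treat the scaled counts as counts and cover counting error only.

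Deposited ATACseq regions lie at the same genes. The file held 8286 regions, and in each of them the genotypes differed at least 1.5-fold in ATRA, so the file is a selection on that contrast and its values are described without a test. Of these regions 13 were annotated with a histone gene of the names used here, 11 of them on chromosome 6. Signal is the density of fragments after all libraries were reduced to the same number. In the region over the HIST1H3C start (chr6:26045086-26045822) it was 2.11 and 0 in Cas9 control DMSO and 1.13 and 2 in Cas9 control ATRA, but 218 and 203 in HK3-null DMSO and 114 and 246 in HK3-null ATRA. The region over the neighbouring start of HIST1H2BB (chr6:26043213-26044090) had 1.33 to 2.32 in the 4 Cas9 control libraries and 113 to 260 in the 4 HK3-null libraries. HIST1H2BB was no member, with 0 to 2 RNA counts in Cas9 control and 1, 1 and 2 in HK3-null DMSO and 0, 10 and 6 in HK3-null ATRA.

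Regions at the starts of HIST1H2AE and HIST1H1D had 0 to 1 and 1 to 3.07 in Cas9 control and 47.7 to 60.5 and 29.2 to 56.8 in HK3-null. Their RNA was low in every library. HIST1H2AE was above 0 in 2 libraries, both labelled HK3-null, and HIST1H1D, an H1 gene, was at 0 in all Cas9 control libraries and at 0 to 4 in HK3-null. The starts of HIST1H3B and HIST1H2AB, between HIST1H4B and HIST1H2BB, were open in both genotypes. HIST1H3B had signals of 90.9 to 151 in Cas9 control and 152 to 318 in HK3-null. Its RNA, for an H3 protein, was at 8, 6 and 2 and at 6, 8 and 8 in Cas9 control DMSO and ATRA, and at 7, 8 and 20 and 3, 47 and 33 in HK3-null. The differences of 1.00 ± 0.78 and 1.18 ± 0.78 were not called. HIST1H3B passed the filter on low values only through the HK3-null groups, so no p is given.

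In the opposite direction, the regions in and at the start of HIST1H1B, an H1 gene, had 44.9 to 66.3 and 50 to 75.1 in Cas9 control and 2.54 to 3.48 and 1 to 2 in HK3-null. The region at the start of HIST1H4L had 41.7 to 73.5 against 2.12 to 3.32. The region over HIST1H3I (chr6:27871856-27872528) had 93.4 and 92.6 in Cas9 control DMSO, 89.8 and 63.9 in Cas9 control ATRA, 20.7 and 18.6 in HK3-null DMSO and 12.3 and 21.5 in HK3-null ATRA. The region at the HIST1H2AL start (chr6:27864952-27865716) had 86.3 to 137 against 29.4 to 64.1, a smaller difference than at its neighbours. HIST1H1B had 1 to 7 RNA counts in each Cas9 control library and 0, 0 and 1 and 0, 0 and 0 in HK3-null DMSO and ATRA. HIST1H4L had 0 to 4 in Cas9 control and 0 in every HK3-null library. On chromosome 1, the region that holds the starts of HIST3H2A and HIST3H2BB (chr1:228457294-228458317) had 156, 116, 124 and 97.9 in Cas9 control and 43.7, 41.5, 25.4 and 41.0 in HK3-null, lower as was the RNA of HIST3H2A. A region inside H3F3B, 3244 bases from its start, had 41.3 to 55.9 in Cas9 control and 75.9 to 141 in HK3-null. In none of the 13 regions did the libraries of the genotypes overlap. The selection of the file on the genotype contrast in ATRA favours such a separation, and the share over all its regions was not computed. The library HK3-null ATRA 1 was below HK3-null ATRA 2 in 11 of the 13 regions, and Cas9 control ATRA 2 below Cas9 control ATRA 1 in 10.

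**Figure D3:**
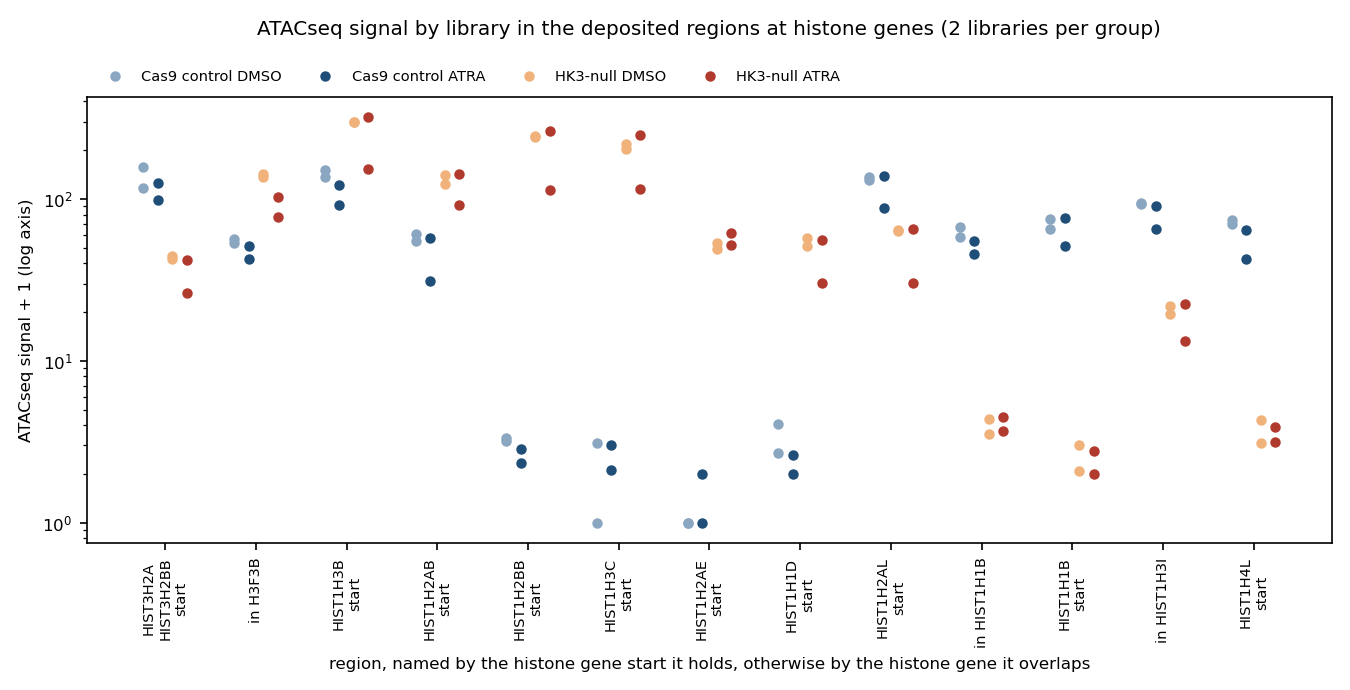
ATACseq signal + 1 on a log axis in the 13 deposited regions at histone genes, 1 point per library (2 per group), named by the histone gene start in the region or, failing that, by the gene it overlaps. Regions at HIST1H2BB, HIST1H3C, HIST1H2AE and HIST1H1D lie at most at a signal of 3.07 in Cas9 control, and those at HIST1H1B and HIST1H4L at most at 3.48 in HK3-null.

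The next question was how ATRA changed histone RNA in each genotype. As a check of the treatment, all 8 genes of a list of known ATRA responders rose in both genotypes, with a median log2 fold change of 4.82 in Cas9 control and 5.21 in HK3-null. In Cas9 control, 2 of 39 tested members rose with ATRA and none fell, beside 12% and 8.32% of all tested genes. At an unadjusted p under 0.05 there were 5 members higher and 0 lower, a count not made over all tested genes. Under quantile normalization the share of rises among all calls went from 59.0% to 48.1%. The median log2 fold change was 0.18 over the members and 0.00 over all tested genes. Both rises were on chromosome 1. HIST2H2AC, an H2A gene, had 33, 14 and 13 counts in DMSO and 54, 38 and 46 in ATRA (1.27 ± 0.32, limma adjusted p = 0.0066). HIST2H2BE, the H2B gene paired with it head to head, had 38, 24 and 27 in DMSO and 68, 49 and 64 in ATRA (1.01 ± 0.25, limma adjusted p = 0.0059). Their ATRA and DMSO libraries did not overlap. HIST1H2BK had a change of 0.37 ± 0.09 (limma adjusted p = 0.0039), under the fold minimum.

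In the libraries labelled HK3-null, 10 of 39 tested members rose with ATRA and none fell, beside 14.8% and 13.6% of all tested genes. The number at an unadjusted p under 0.05 was 16 higher and 0 lower, without a share over all tested genes to set beside it. The median was 0.66 over the members and 0.01 over all tested genes. Of the 39 members 35 had values above 0, beside 6752 of all 13256 tested genes. Among the 39, 5 passed the filter on low values only through HK3-null ATRA, which favours a rise. The rises were those of HIST1H4I, HIST1H4E and HIST1H4A among 6 H4 genes, HIST1H3I among 5 H3 genes, HIST1H2BJ and HIST2H2BE among 10 H2B genes, HIST1H2AC and HIST1H2AI among 9 H2A genes, HIST1H1C among 2 H1 genes and the replacement variant H1FX. The count rested on single libraries. It was 4 without HK3-null ATRA 2, 4 without HK3-null DMSO 2, 5 without HK3-null DMSO 1, 6 without HK3-null ATRA 3 and 12 without either HK3-null ATRA 1 or HK3-null DMSO 3. With the replicate number as a block HIST1H2BC was called as well (0.66 ± 0.27, limma adjusted p = 0.058 without the block and 0.035 with it).

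HIST1H2BJ rose from 15, 10 and 12 counts in HK3-null DMSO to 24, 37 and 29 in HK3-null ATRA (1.21 ± 0.31, limma adjusted p = 0.0057), and the groups did not overlap. HIST1H2AC rose from 38, 32 and 20 to 46, 60 and 68 (0.96 ± 0.28, limma adjusted p = 0.013). HIST2H2BE rose from 48, 32 and 60 to 78, 76 and 92 (0.84 ± 0.25, limma adjusted p = 0.014), as it did in Cas9 control. HIST2H2AC had 19, 20 and 18 against 23, 34 and 35 (0.64 ± 0.32, limma adjusted p = 0.12). HIST1H3I, at 0 in HK3-null DMSO, had 1, 3 and 1 in HK3-null ATRA, both at or under the floor of 3 counts, so no fold is given. The H4 genes had a median change of 1.17 in HK3-null and -0.24 in Cas9 control. HIST1H4A (1.15 in HK3-null) and HIST1H4B (1.18) passed the filter on low values only through HK3-null ATRA, which favours a rise in HK3-null. The median of 1.17 lies between their values. HIST1H4E had 6, 5 and 11 in HK3-null DMSO and 11, 30 and 22 in HK3-null ATRA (1.36 ± 0.44, limma adjusted p = 0.021), and 8, 21 and 8 against 8, 10 and 9 in Cas9 control (-0.28 ± 0.44). Its groups overlapped at 11 in HK3-null. The rise of HIST1H2AC was not called without HK3-null DMSO 3 (0.70, limma adjusted p = 0.060) or HK3-null ATRA 3 (0.84, limma adjusted p = 0.051), and that of HIST2H2BE not without HK3-null DMSO 2 (0.60, limma adjusted p = 0.067). HIST1H3I was not called without HK3-null ATRA 2 (limma adjusted p = 0.079). HIST1H3I was also not called with a pseudocount of 4 (limma adjusted p = 0.13). HIST1H4A, which passed the filter only through HK3-null ATRA, lost its call without Cas9 control DMSO 1, Cas9 control ATRA 3, any HK3-null DMSO library, or HK3-null ATRA 1 or 2, on the deposited log2 values, without any filter and under quantile normalization. Leaving out the 5 members that passed only through that group, 9 of 34 rose. The 9 still include HIST1H3I, whose counts were at or under the floor in both groups. The share over all tested genes with the same exclusion was not computed.

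**Figure D4:**
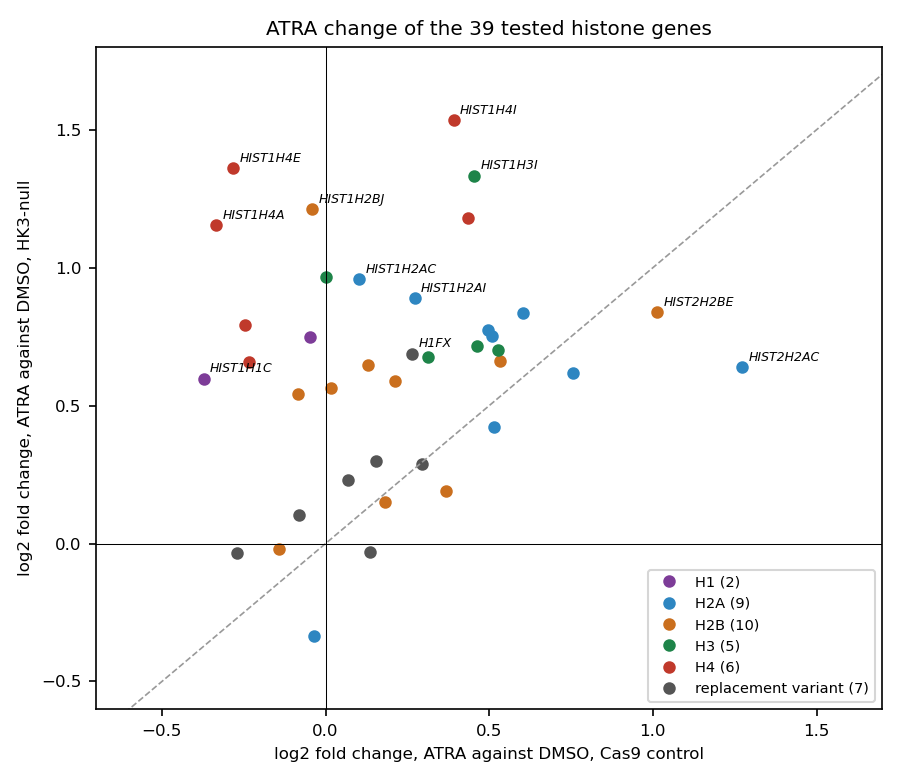
Log2 fold change of ATRA against DMSO (normalized count + 1) of the 39 tested members in Cas9 control (horizontal axis) and HK3-null (vertical axis), coloured by class, with the called members named and the line of equal change dashed. The 6 H4 genes lie above the dashed line, although HIST1H4A and HIST1H4B among them passed the filter on low values only through HK3-null ATRA. HIST2H2AC and HIST2H2BE lie furthest to the right.

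In the fit without the replicate block, the ATRA change of 1 member, HIST1H1C, differed between the genotypes by the test of that difference. Its change was higher in HK3-null, and no member had a lower one. Of all tested genes 4.79% had a higher and 5.18% a lower change in HK3-null by the same test. At an unadjusted p under 0.05, 4 members had a higher and 0 a lower change, counts not made over all tested genes. HIST1H1C (chr6:26055740-26056470) encodes a linker histone H1 found in most somatic cells. It had 314, 207 and 341 counts in Cas9 control DMSO, 272, 171 and 219 in Cas9 control ATRA, 137, 133 and 159 in HK3-null DMSO and 212, 220 and 217 in HK3-null ATRA. HK3-null DMSO was below all other groups. The change with ATRA was -0.37 ± 0.20 in Cas9 control (limma adjusted p = 0.15) and 0.60 ± 0.20 in HK3-null (limma adjusted p = 0.022), and the interaction was 0.97 ± 0.28 (limma adjusted p = 0.045). HIST1H1C was lower in HK3-null than in Cas9 control in DMSO, by -0.97 ± 0.20 (limma adjusted p = 0.00095), and had a difference of 0.00 in ATRA, a comparison that shares the HK3-null ATRA libraries. The interaction rested on a narrow margin. It was no longer called without any filter (limma adjusted p = 0.066), on the deposited log2 values (limma adjusted p = 0.057), or when any 1 of 10 of the 12 libraries was left out, all but Cas9 control DMSO 2 and Cas9 control ATRA 1 (limma adjusted p = 0.055 to 0.10). The rise in HK3-null was not called without HK3-null DMSO 1 (0.57, limma adjusted p = 0.061), HK3-null DMSO 2 (0.55, limma adjusted p = 0.070) or HK3-null ATRA 2 (0.59, limma adjusted p = 0.056), nor under quantile normalization (0.47, limma adjusted p = 0.059). The other H1 gene among the members, HIST1H1E, had 29, 29 and 22, 18, 33 and 28, 21, 16 and 46, and 16, 71 and 67 in the same order, with an interaction of 0.80 ± 0.73 (limma adjusted p = 0.59). With the replicate number as a block 4 further interactions were called, a higher change in HK3-null for H1FX (0.42, limma adjusted p = 0.0002), H3F3B (0.24, limma adjusted p = 0.035) and HIST1H4E (1.64, limma adjusted p = 0.0497) and a lower change for H2AFY (-0.17, limma adjusted p = 0.042), while that of HIST1H1C was 0.97 (limma adjusted p = 0.0038).

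Among the replacement variants, H2AFY and H1FX were called between the genotypes, both in ATRA. H2AFY (chr5:135334381-135399887) encodes macroH2A, a large H2A variant associated with silent chromatin. It had 13361, 13449 and 12691 counts in Cas9 control DMSO and 9111, 8777 and 8655 in HK3-null DMSO. In ATRA it had 14920, 15172 and 13365 in Cas9 control and 8994, 8843 and 8179 in HK3-null. The genotypes were well apart in both treatments, by -0.57 ± 0.06 in DMSO, under the fold minimum (limma adjusted p = 3.7e-06), and by -0.74 ± 0.06 in ATRA (limma adjusted p = 3.2e-07). The median of the 572 tested genes of chromosome 5 was -0.75 in DMSO and -0.77 in ATRA, and with that median subtracted the difference of H2AFY in ATRA was 0.04. H2AFY2, the other macroH2A gene, on another chromosome and no member by name, had 24, 6 and 13 counts in Cas9 control DMSO and 48, 34 and 38 in Cas9 control ATRA, and 0 in all 6 HK3-null libraries. It was at least 4.78-fold lower in DMSO and at least 13.3-fold lower in ATRA, given without a p because it passed the filter only through Cas9 control.

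H1FX (chr3:129314771-129316286) encodes a replication-independent linker histone. It had 3348, 3081 and 2416 counts in Cas9 control DMSO, 4244, 3618 and 2817 in Cas9 control ATRA, 4693, 3970 and 3018 in HK3-null DMSO and 7095, 6537 and 5074 in HK3-null ATRA. HK3-null ATRA stood above all other libraries. Its rise with ATRA was 0.69 ± 0.19 in HK3-null (limma adjusted p = 0.0088) and its difference between the genotypes in ATRA 0.81 ± 0.19 (limma adjusted p = 0.0024). Without HK3-null DMSO 3 the rise was 0.52, under the fold minimum. The same differences were 0.27 ± 0.19 with ATRA in Cas9 control and 0.39 ± 0.19 between genotypes in DMSO, neither of them called (limma adjusted p = 0.29 and 0.097). H1F0, the other replication-independent linker histone, had 10 counts in 2 Cas9 control libraries and 0 to 5 in the other 10, too few for a test.

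H2AFX encodes the H2A variant that is phosphorylated at DNA breaks. It had 5593, 4856 and 5217 counts in Cas9 control DMSO and 4172, 3718 and 3562 in HK3-null DMSO, and 5720, 5341 and 5360 against 4496, 4413 and 4493 in ATRA. The genotypes did not overlap, at -0.45 ± 0.07 in DMSO and -0.29 ± 0.07 in ATRA (limma adjusted p = 9.8e-05 and 0.0024), both under the fold minimum of 1.5. H2AFZ, the H2A variant found at promoters, had 29540, 30491 and 27217 against 23920, 23590 and 22716 in DMSO (-0.31 ± 0.07, limma adjusted p = 0.0027) and 29680, 26690 and 26083 against 27051, 25884 and 22766 in ATRA (-0.12 ± 0.07, limma adjusted p = 0.16). Its paralog H2AFV had differences of 0.07 ± 0.10 and 0.22 ± 0.10 between the genotypes. H3F3A and H3F3B encode the same replacement H3 protein. H3F3A went from 918, 869 and 951 to 1171, 1116 and 1074 with ATRA in Cas9 control and from 982, 1028 and 855 to 1270, 1132 and 1098 in HK3-null (0.30 ± 0.08 and 0.29 ± 0.08, limma adjusted p = 0.014 and 0.012), again under the fold minimum. H3F3B had 11450 to 13963, 9122 to 12706, 10207 to 14387 and 9617 to 14839 in the 4 groups, which all overlapped.

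**Figure D5:**
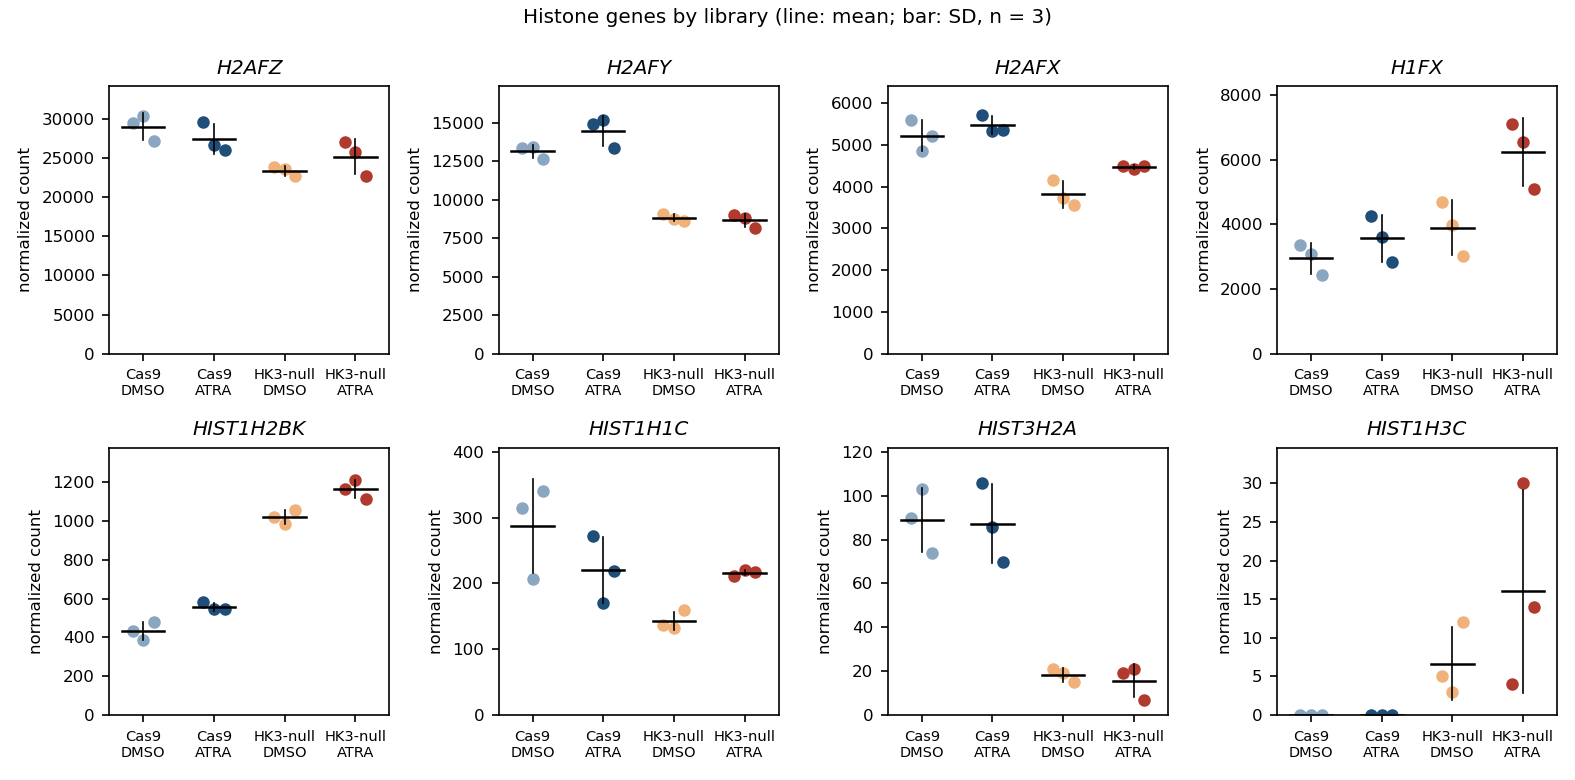
Normalized counts (vertical axes from 0) of 4 replacement variants (upper row) and 4 cluster members (lower row) in the 12 RNAseq libraries, 1 point per library, with the mean as a line and the SD as a bar (n = 3). H2AFY, H2AFX and HIST3H2A are lower and HIST1H2BK and HIST1H3C higher in HK3-null in both treatments, and HIST1H1C is lowest in HK3-null DMSO.

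Genes that act on histones or run beside them were read from lists drawn up with the members. Of 18 tested genes of histone mRNA processing and transcription, 3 were higher and 2 lower in HK3-null in DMSO, and 2 higher and 1 lower in ATRA. The shares over all tested genes were 18.2% and 15.5% in DMSO and 20% and 18.6% in ATRA. ERI1, an exonuclease that trims the histone mRNA end, was higher by 0.88 ± 0.07 in DMSO and 0.92 ± 0.07 in ATRA (limma adjusted p = 5.3e-07 and 3.1e-07), and CASP8AP2, a factor of the histone locus body, by 0.99 ± 0.20 and 0.89 ± 0.20 (limma adjusted p = 0.0010 and 0.0019). LSM11 and LSM10 belong to the particle that cuts histone transcripts. LSM11 was lower by -0.69 ± 0.09 and -1.05 ± 0.09 (limma adjusted p = 4.3e-05 and 8.3e-07), and LSM10 by -0.66 ± 0.08 in DMSO (limma adjusted p = 8.7e-06). SLBP, which binds the stem-loop of histone mRNA, had 4101 to 5540 counts in Cas9 control DMSO and 3483 to 4490 in HK3-null DMSO, and was not called in any comparison. With ATRA, 1 of the 18 rose in each genotype and none fell by limma. Of all tested genes 12% rose and 8.32% fell in Cas9 control, and 14.8% and 13.6% in HK3-null. At an unadjusted p under 0.05, of the 18 there were 2 higher and 7 lower in Cas9 control and 3 higher and 5 lower in HK3-null. These unadjusted counts were not made over all tested genes.

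Of 25 S phase genes, 2 rose and 1 fell with ATRA in Cas9 control, beside 12% and 8.32% of all tested genes. In HK3-null 3 rose and none fell, beside 14.8% and 13.6% of all tested genes, and the median change was -0.05. The rises in HK3-null were those of CCNE2, a cyclin of S phase entry (1.08 ± 0.13), TK1, thymidine kinase (0.91 ± 0.08), and RRM2, a ribonucleotide reductase subunit (0.64 ± 0.09). Between the genotypes CCNE2 was higher in HK3-null by 1.27 ± 0.13 in DMSO and 1.64 ± 0.13 in ATRA. Among all tested genes 18.2% were higher and 15.5% lower in HK3-null in DMSO, and 20% and 18.6% in ATRA. Of 21 histone chaperones, none was called between the genotypes in DMSO by limma. At an unadjusted p under 0.05 there were 4 higher and 9 lower, counts not made over all tested genes. In ATRA 1 chaperone was called lower. That gene was IPO4, an importin that carries histones (-1.10 ± 0.12, limma adjusted p = 5.3e-06), which also fell with ATRA in both genotypes. ASF1B, a chaperone of H3 and H4 in dividing cells, rose with ATRA by 0.71 ± 0.08 in Cas9 control and 1.00 ± 0.08 in HK3-null (limma adjusted p = 1.1e-05 and 2.8e-07).

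Reads of near-identical histone genes cannot always be assigned. Of the 34 cluster members, 7 shared 50% or more of their 40-base words with transcripts of other genes, among them HIST1H2BK, HIST1H3D (96.6%) and HIST1H4K (92.8%). The median was 5.90%, and HIST1H1C, HIST1H4A, HIST1H4C, HIST1H4E and HIST1H4H shared none. For HIST1H3C and HIST1H3I the shares were 2.46% and 0.43%. Of the 34 cluster members 20 had a mean under 20 counts.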

How the data were processed

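RNAseq (12 libraries) and ATACseq (8 libraries) of HL60 cells were used as deposited. For RNAseq, the authors deposited the log2 of a scaled count for each gene, with 0 written as the log2 of 0.001. Raising 2 to that value gave whole numbers within a relative distance of 3.5e-05. The submitters' notes name DESeq2, GRCh38 and MACS2, while no source used here names the RNAseq aligner and counter. A test on read counts before scaling was not made. Entries without a gene name (330) were left out. For ATACseq, the authors deposited a signal, the fragment density in merged peak regions after bwa mem alignment, removal of duplicates and reduction to equal fragment numbers. Its depth is unknown.

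Symbols were matched to RefSeq GRCh38.p14 (42 of 42 members). The 13256 genes whose deposited log2 values averaged more than 3 in some group were fitted as log2(normalized count + 1) with limma 3.58.1 in R 4.3.3 (lmFit, eBayes with trend), with 4 group means over the 12 libraries. Calls needed a Benjamini-Hochberg adjusted p under 0.05 and, between 2 groups, a fold of at least 1.5. A pseudocount of 1 understates changes of genes with few counts. The procedure was tested on simulated data. Named genes were the 8 replacement variants, the 8 cluster genes with most counts, up to 4 called cluster genes with groups that do not overlap per comparison and direction, called interactions and up to 4 called genes per list. HIST1H2BL, HIST1H2AI, HIST1H4E, HIST1H4I, the genes at ATACseq regions, the uncalled members with values, SLBP, H2AFY2, HCG11, ZNF391, BTN3A3 and LINC01012 were named after their values were seen. The members, the lists and the rule were chosen with earlier results of these data known. Shared 40-base words were counted in GENCODE v44 transcripts.

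Replicate numbers were checked for pairing by correlating deviations from the group means over 10666 genes. The 18 pairs with the same number correlated at 0.19 to 0.63 and the 36 pairs with different numbers at -0.64 to 0.28, so the numbers were taken to pair the libraries. The main fit held no term for this pairing. Calls and p values therefore ignore it, except where the replicate block is named. Alternatives were other pseudocounts, filters, scaling, fold minimum, chromosome centring, the replicate block and leaving out each library.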

Additional observations from a re-analysis of the deposited data

Results flagged for a closer look

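HIST1H1C, a linker histone gene, drew attention because its change with ATRA differed between the genotypes in a test of the difference itself. The difference was 0.97 on the log2 scale (SE 0.28, limma interaction adjusted p = 0.045). Counts went from 314, 207 and 341 to 272, 171 and 219 in Cas9 control and from 137, 133 and 159 to 212, 220 and 217 in the libraries labelled HK3-null. The change was up in 3 of 3 HK3-null replicates of the same number and down in 3 of 3 Cas9 control replicates. These are the values that led to its choice, so the directions add no support. The interaction was no longer called in 12 of 18 alternative settings.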

How the results depend on the processing

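The 30 called values of single named members were recomputed under 573 alternative settings in all. Of these 510 kept direction and call, 62 kept the direction without passing the threshold and 1 changed sign, namely H2AFY between genotypes in ATRA, at 0.035 with the median of its chromosome subtracted. By construction, a mean of at least 50 counts leaves fewer members, with 1 higher for ATRA in Cas9 control, 3 higher for ATRA in HK3-null, 2 higher and 2 lower between genotypes in DMSO, and 3 higher and 2 lower in ATRA. A fold minimum of 2 left 5 members higher for ATRA in HK3-null and 3 lower between genotypes in DMSO. Subtracting chromosome medians gave 2 higher and 10 lower in DMSO and 2 higher in ATRA. Higher interactions numbered 0 without a filter, 2 with quantile normalization and 4 with the replicate block, and lower ones 1 and 1 with the latter pair. The cause of the change in interactions was not tested. Apart from the calls named with it in the report, the replicate block changed no other call of a member. With each library left out in turn, members higher ranged from 2 to 3 and lower from 0 to 1 for ATRA in Cas9 control, higher from 4 to 12 for ATRA in HK3-null, higher from 4 to 6 and lower from 5 to 9 between genotypes in DMSO, higher from 5 to 9 with 4 lower throughout in ATRA, and higher interactions from 0 to 1. Depth limits the 20 cluster members with a mean under 20 counts.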

Other observations

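Of the 39 tested members, 19 were called in at least 1 comparison and 20 in none, 15 of them cluster genes, whose log2 fold changes lay between -0.61 and 1.18. HIST1H2BD, an H2B gene with polyadenylated transcripts, had 31, 36 and 31 counts in Cas9 control DMSO, 31, 30 and 31 in Cas9 control ATRA, 22, 15 and 38 in HK3-null DMSO and 23, 41 and 43 in HK3-null ATRA. Its HK3-null libraries spread more widely than its Cas9 control libraries. HIST1H4C, an H4 gene, had 16, 15 and 13, 15, 12 and 10, 6, 6 and 21, and 10, 29 and 16 in the same order of groups.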
